A study of Mus musculus with 15 samples.

Results

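Expression of 10 genes of the fast skeletal muscle fiber was measured in the RNA-Seq of whole aortas from mice administered aldosterone and salt. The genes were *Myh1*, *Myh2*, *Myh4*, *Acta1*, *Ckm*, *Tnnt3*, *Tnni2*, *Mylpf*, *Actn3* and *Atp2a1*, and they were chosen by name, with their levels in these same libraries already known. They are 10 of the 24982 gene symbols counted, and all 10 were among the 14121 genes that passed the filter on low counts. Because the selection rested on these readouts, the levels and group differences of the 10 genes are given as a description and carry no test. The same holds for the make-up of the myosin counts, which comes from 3 of the 10 genes, and tests are given only for other muscle genes. The lists of those genes were also drawn up with results of these libraries known, so their calls are no independent evidence. All 15 mice were male, wild-type C57BL/6 mice aged 10 months, and all received aldosterone at 200 µg/kg per day from an osmotic minipump with 0.9% NaCl and 0.2% KCl in the drinking water for 7 days (Aldo-salt). The control group had a sham operation before Aldo-salt, the orchiectomized group lost the testes before Aldo-salt, and the DHT group was orchiectomized and given a pellet of dihydrotestosterone (DHT), an androgen, with Aldo-salt. Each group had 5 mice with 1 library each, and no group was free of Aldo-salt. The aortas were cleaned in a preservative, and the libraries were made from poly(A) RNA of the whole tissue.

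Skeletal muscle fibers contract when myosin filaments pull on actin filaments, and the troponin complex on the actin filament makes this depend on calcium. Fast and slow fibers use different genes for most parts of this machinery. In the adult limb and trunk muscles of mice, the heavy chain of myosin is made from *Myh4* in type IIB fibers, from *Myh1* in type IIX fibers, from *Myh2* in type IIA fibers and from *Myh7* in slow fibers, and *Myh7* is also used by the heart. The wall of the aorta holds smooth muscle, which uses *Myh11* and *Acta2* instead, so fast-fiber genes are not part of its own contractile program. Skeletal muscle is a well-known target of androgens, and muscle also lies beside the aorta, at the diaphragm and along the spine.

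The myosin heavy chain genes among them lie side by side in the mouse genome. In the GENCODE annotation of the GRCm38 build, *Myh2* (chr11:67171027-67197517), *Myh1* (chr11:67200052-67224575) and *Myh4* (chr11:67238029-67260446) follow each other on the plus strand within 89420 bases, with no other protein-coding gene between them. The 250 bases before each RefSeq transcript start (GRCm38.p6, plus strand) are shown because these neighboring genes took different shares of the myosin counts in different mice, as described further on. Capitals mark matches on either strand to CANNTG (the E-box, the core bound by the myogenic factors of the MyoD family), to TATAAA or to the MEF2 consensus.
Myh2, chr11:67170777-67171026: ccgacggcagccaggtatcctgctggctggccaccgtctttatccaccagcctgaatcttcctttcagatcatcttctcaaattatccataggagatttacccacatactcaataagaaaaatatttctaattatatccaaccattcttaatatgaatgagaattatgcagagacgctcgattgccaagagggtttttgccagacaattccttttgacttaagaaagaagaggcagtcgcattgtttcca
Myh1, chr11:67199852-67200101: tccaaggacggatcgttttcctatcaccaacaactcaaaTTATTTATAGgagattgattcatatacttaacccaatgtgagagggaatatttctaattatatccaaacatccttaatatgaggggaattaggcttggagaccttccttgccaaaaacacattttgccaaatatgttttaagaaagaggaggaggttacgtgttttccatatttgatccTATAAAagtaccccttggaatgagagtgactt
Myh4, chr11:67237562-67237811: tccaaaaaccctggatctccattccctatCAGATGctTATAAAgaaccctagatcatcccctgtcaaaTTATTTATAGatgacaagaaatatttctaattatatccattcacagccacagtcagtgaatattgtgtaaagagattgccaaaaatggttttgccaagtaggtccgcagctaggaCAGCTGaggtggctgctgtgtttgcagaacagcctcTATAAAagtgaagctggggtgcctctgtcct
The *Myh1* and *Myh4* windows held the same 10-base MEF2 match, which overlaps a match to TATAAA on the other strand, and each held a further TATAAA close to the RefSeq start. The annotations differ here, since the GENCODE start of *Myh1* (67200052) lies inside its printed window and that of *Myh4* (67238029) beyond the end of its window. The *Myh2* window held no match to any of these letters. CANNTG was found in the *Myh4* window, as CAGATG and as CAGCTG, and in neither of the other windows.

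Promoter windows were in the RefSeq table for 7 of the 10 genes, all but *Tnni2*, *Tnnt3* and *Actn3*. CAGCTG, a form of CANNTG, stood in the 250 bases before the start of 5 of these 7 genes (*Myh4*, *Acta1*, *Ckm*, *Mylpf* and *Atp2a1*), against 13.0% of all 32851 windows of that length. CANNTG in any form was in the same 5, against 66.2% of all windows. TATAAA was in 3 of 7 (12.4% of all) and the MEF2 consensus in 2 of 7 (2.92% of all). These letter matches describe the windows and say nothing of binding in these aortas.

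The other genes lie on chromosomes 7 (*Ckm*, chr7:19404776-19422841, *Atp2a1*, chr7:126445858-126463108, *Mylpf*, chr7:127208890-127214298, *Tnni2*, chr7:142441808-142444410, and *Tnnt3*, chr7:142498836-142516009), 8 (*Acta1*, chr8:123891769-123894751) and 19 (*Actn3*, chr19:4861216-4877909). Reads can be hard to assign in 2 ways. Exons of *Atp2a1* overlap those of the protein-coding gene *Rabep2* on the other strand over 763 bases, and exons of *Ckm*, *Myh1* and *Myh2* overlap antisense genes over 451, 515 and 237 bases. Whether the counting used strand is not given in the sources used here. Of the 100-base windows of the longest coding transcript, 9.73% for *Myh1*, 9.17% for *Myh2* and 3.85% for *Myh4* occurred unchanged in another sarcomeric myosin heavy chain gene, so part of their reads may have been split between them or left uncounted. *Acta1* shared no 100-base window with *Acta2*, *Actc1* or the other actin genes compared.

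Gene counts ranged from 8268957 to 13816864 per library, and 10 counts corresponded to a median of 0.904 CPM (counts scaled to a common library size after TMM). The libraries held the smooth muscle of the aortic wall: the summed level of 8 smooth muscle genes ranged from 11400 to 26400 CPM. Library orchiectomized 2 stood apart from the rest. It had 2280 CPM of *Myh6*, the myosin heavy chain of the heart, where the other 14 libraries had 0.43 to 609 CPM, and 32 CPM of *Krt5*, a keratin of stratified epithelium, where they had at most 0.636 CPM. It also had the lowest smooth muscle sum, and the counts of calls among other muscle genes that change without it are given both ways. Control 5 had the next highest *Myh6* level, 609 CPM.

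Together the 10 genes took 0.00126% to 0.0622% of the counts of a library, a very small part of each. The share of all skeletal muscle RNA was not estimated. The median share was 0.00723% in control, 0.00157% in orchiectomized and 0.0344% in DHT mice. The mean log2 CPM over the 10 genes was 3.13 ± 1.57 (SD, n = 5) in control, 1.45 ± 1.23 (SD, n = 5) in orchiectomized and 4.18 ± 0.91 (SD, n = 5) in DHT mice. The groups overlapped: the lowest DHT library (3.14) was below control 1 and control 4 (5.36 and 4.11), and the highest orchiectomized library (2.85) was above 3 of 5 controls. In bulk tissue, fewer muscle cells and less of each RNA per muscle cell cannot be told apart.

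**Figure D1:**
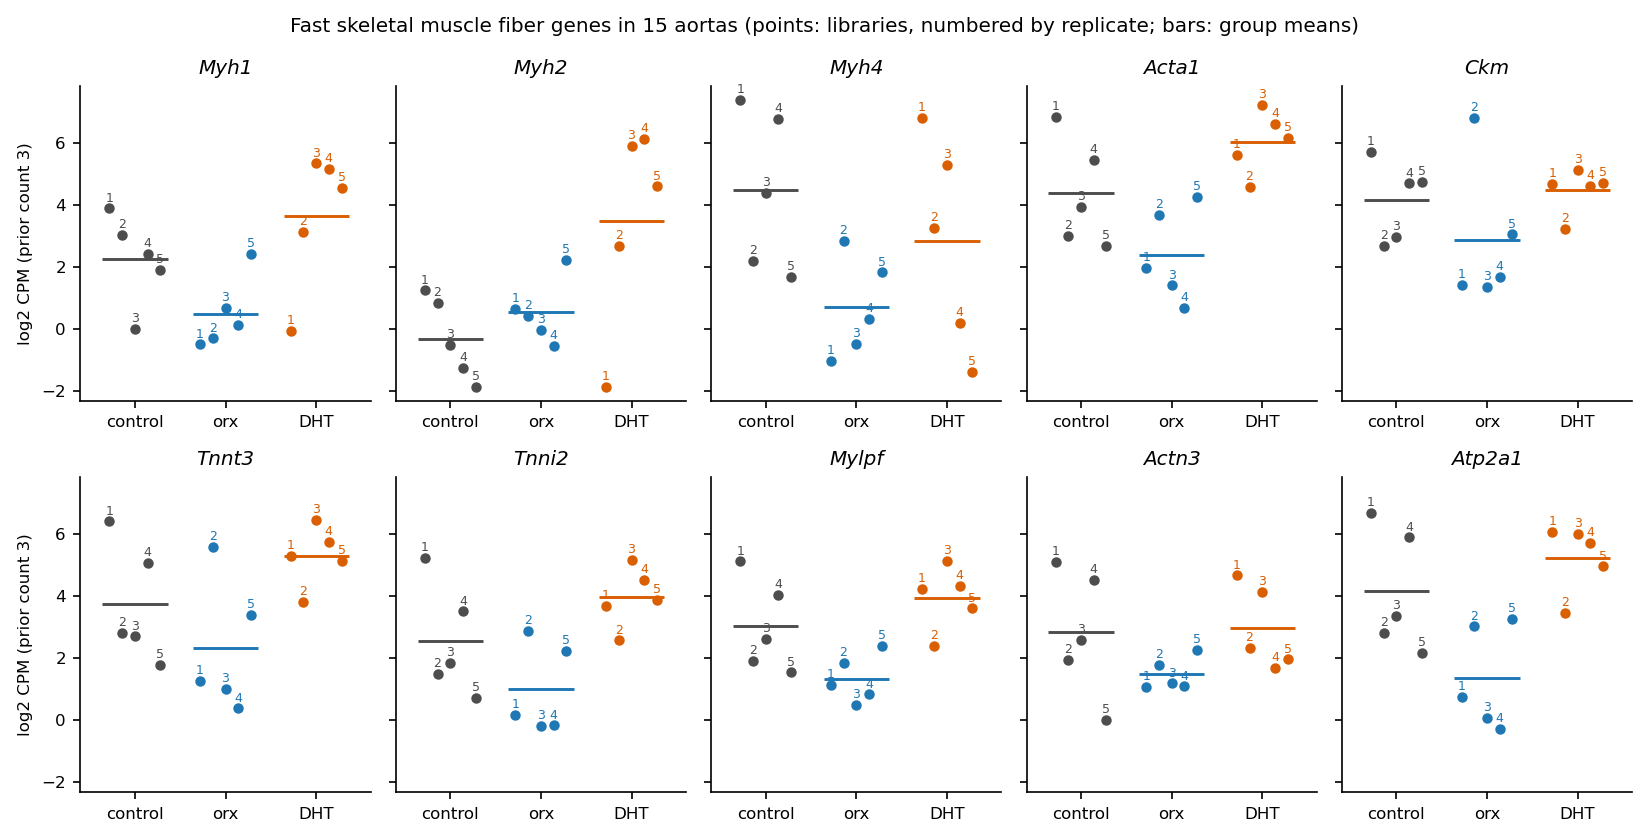
Log2 CPM (prior count 3) of each of the 10 genes in every library, with 1 panel per gene, points numbered by replicate and bars at the group means (orx, orchiectomized). Most genes run from low in orchiectomized 1, 3 and 4 to high in control 1, control 4 and DHT 1, 3, 4 and 5, with DHT 2 lower. *Myh4* and *Myh2* spread widest within the DHT group, *Myh4* from 0.103 to 110 CPM.

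Among the myosin heavy chains, *Myh4* and *Myh2* had wider ranges than *Myh1*. *Myh4*, the IIB chain, stood at 164, 4.30, 20.5, 108 and 2.91 CPM in controls 1 to 5, at 0.215, 6.89, 0.436, 0.960 and 3.25 CPM in orchiectomized mice 1 to 5, and at 110, 9.26, 38.5, 0.862 and 0.103 CPM in DHT mice 1 to 5. Control 1, control 4 and DHT 1 were high and DHT 4 and 5 were within or below the range of the orchiectomized libraries, so all groups overlapped. *Myh1*, the IIX chain, stood at 14.5, 7.85, 0.728, 5.02 and 3.46 CPM in controls, at 0.430, 0.530, 1.31, 0.823 and 5.04 CPM in orchiectomized mice and at 0.683, 8.45, 39.9, 35.5 and 23.0 CPM in DHT mice. DHT 3, 4 and 5 were the highest libraries of *Myh1*, and DHT 1 was among the lowest. *Myh2*, the IIA chain, stood at 2.08, 1.5, 0.416, 0.141 and 0 CPM in controls, at 1.29, 1.06, 0.698, 0.412 and 4.39 CPM in orchiectomized mice and at 0, 6.11, 59.2, 69.5 and 23.7 CPM in DHT mice. It exceeded 5 CPM only in DHT 2 to 5, and the counts of 0 in control 5 and DHT 1 allow up to 0.273 and 0.256 CPM (3 counts per library, counting error only).

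The genes of the thin filament moved together from library to library. *Acta1*, the skeletal muscle actin, stood at 113, 7.66, 15, 43.1 and 6.10 CPM in controls, at 3.65, 12.5, 2.36, 1.30 and 18.6 CPM in orchiectomized mice and at 48.2, 23.4, 149, 97.0 and 70.8 CPM in DHT mice. All DHT libraries were above all orchiectomized libraries, and the controls spanned both. *Tnni2*, the fast inhibitory troponin subunit, stood at 37.6, 2.52, 3.33, 11.1 and 1.37 CPM in controls, at 0.859, 7.06, 0.611, 0.617 and 4.47 CPM in orchiectomized mice and at 12.6, 5.66, 35.7, 22.7 and 14.4 CPM in DHT mice. Only DHT 2 was below the highest orchiectomized library, orchiectomized 2. *Tnnt3*, the fast troponin subunit that binds tropomyosin, stood at 84.7, 6.82, 6.24, 33.2 and 3.19 CPM in controls, at 2.15, 47.4, 1.74, 1.03 and 10.3 CPM in orchiectomized mice and at 39.3, 13.7, 88.3, 53.9 and 34.9 CPM in DHT mice. Orchiectomized 2 was above 3 of the 5 DHT libraries for this gene, and the other 4 orchiectomized libraries were below all of them.

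*Mylpf*, the regulatory light chain of fast myosin, stood at 34.4, 3.46, 5.93, 16.2 and 2.64 CPM in controls, at 1.93, 3.36, 1.13, 1.51 and 4.95 CPM in orchiectomized mice and at 18.7, 5.03, 35.2, 19.8 and 11.9 CPM in DHT mice. The DHT libraries were again all above the orchiectomized ones, by a margin of 5.03 against 4.95 CPM at the closest. *Actn3*, the fast-fiber α-actinin that anchors actin at the Z-disc, stood at 34.1, 3.55, 5.72, 22.8 and 0.729 CPM in controls, at 1.83, 3.18, 2.01, 1.85 and 4.55 CPM in orchiectomized mice and at 25.2, 4.76, 17.3, 2.96 and 3.61 CPM in DHT mice. Its levels in DHT 4 and 5 lay within the orchiectomized range, and *Myh4* was low in the same mice, whereas *Acta1* and *Tnni2* were high in both libraries.

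*Atp2a1*, the calcium pump of the fast sarcoplasmic reticulum, stood at 102, 6.73, 10.1, 59.2 and 4.19 CPM in controls, at 1.4, 7.86, 0.785, 0.549 and 9.26 CPM in orchiectomized mice and at 66.9, 10.8, 64.1, 52.5 and 30.8 CPM in DHT mice. All DHT libraries were above all orchiectomized libraries. *Ckm*, the muscle creatine kinase, which the heart uses as well, stood at 52.0, 6.07, 7.49, 25.4 and 26.2 CPM in controls, at 2.36, 110, 2.27, 2.88 and 7.96 CPM in orchiectomized mice and at 25.1, 8.99, 34.7, 23.9 and 25.9 CPM in DHT mice. Its highest library was orchiectomized 2, and without it the orchiectomized libraries were all below the lowest DHT library.

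Orchiectomized mice had lower fitted levels than controls for 8 of the 10 genes. The largest differences were for *Myh4*, 25.4-fold lower (log2 fold change -4.66, SE 1.48), from a mean of 60.0 CPM to 2.35 CPM, and for *Atp2a1*, 9.14-fold lower (-3.19, SE 0.96), from 36.3 to 3.97 CPM. *Actn3*, *Mylpf*, *Acta1*, *Tnni2* and *Myh1* were lower by log2 values of -2.31 to -1.93, and *Tnnt3* by -1.10 (SE 1.01). *Myh2* and *Ckm* were on the other side at 0.94 (SE 1.23) and 0.10 (SE 0.95), each within its SE of 0. For *Ckm* the direction depended on the fit, with -1.78 from limma voom and -1.33 with the replicate number as a block. The median over the 10 genes was -2.15, and over all 14121 genes it was 0.04. Control 1 was the highest control for all 10 genes, and without it *Myh4* was 14.4-fold and *Atp2a1* 5.07-fold lower, *Acta1* went from -2.27 to -1.24, *Tnni2* from -2.04 to -0.77 and *Tnnt3* from -1.10 to 0, and the median was -1.31. Without orchiectomized 5, *Myh2* was at 0.05, *Myh1* at -2.99, *Acta1* at -2.92 and *Atp2a1* at -3.79.

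DHT-treated mice had higher fitted levels than untreated orchiectomized mice for 9 of the 10 genes. *Myh2* was 20-fold higher (4.32, SE 1.14), *Myh4* 13.5-fold (3.75, SE 1.44), *Myh1* 12.9-fold (3.69, SE 0.95), *Atp2a1* 11.3-fold (3.5, SE 0.97) and *Acta1* 10.1-fold (3.33, SE 0.88). *Mylpf*, *Tnni2*, *Actn3* and *Tnnt3* had log2 differences of 1.87 to 2.80, and *Ckm* had -0.09 (SE 0.96). Without DHT 1 *Myh4* was 5.09-fold higher (2.35) and *Actn3* went from 2 to 1.4, and limma voom put *Myh2* at 1.67. Without orchiectomized 5, *Myh1* and *Myh2* were at 4.75 and 5.21, and *Atp2a1* and *Acta1* at 4.09 (17.1-fold) and 3.98 (15.8-fold). The median was 3.07, and over all genes it was -0.02. Every DHT library exceeded every orchiectomized library for 3 of the 10 genes (*Acta1*, *Mylpf* and *Atp2a1*), and the same held for 2.09% of all genes tested. Since the choice of the genes used this contrast, nothing is read from that count. Both comparisons use the same 5 orchiectomized libraries, so the lower levels in the first and the higher levels in the second are not independent of each other.

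Between DHT-treated and control mice the median log2 difference was 0.61, against 0 over all genes. *Myh2* was 38.3-fold higher in DHT mice (5.26, SE 1.22), with means of 31.7 against 0.826 CPM, and *Myh1* was 3.39-fold higher (1.76, SE 0.86). The other 8 genes lay between -0.91 for *Myh4* and 1.06 for *Acta1*. Without control 1 the median was 1.61, with *Myh2* at 5.96 (62.2-fold), *Acta1* at 2.10, *Tnni2* at 1.97 and *Tnnt3* at 1.87. Without DHT 1 *Myh4* was at -2.32.

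Leaving out orchiectomized 2 changed *Ckm* and *Tnnt3* most. *Ckm* went from 0.10 to -2.61 (SE 0.64) in orchiectomized against control mice, and from -0.09 to 2.61 (SE 0.64) in DHT against orchiectomized mice. *Tnnt3* went from -1.10 to -2.84 (SE 0.98) and from 1.87 to 3.59 (SE 1.00). The log2 differences of the other 8 genes moved by less than 1 in either comparison, and without that library 9 of the 10 genes had a lower fitted level in orchiectomized than in control mice, all but *Myh2*.

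**Figure D2:**
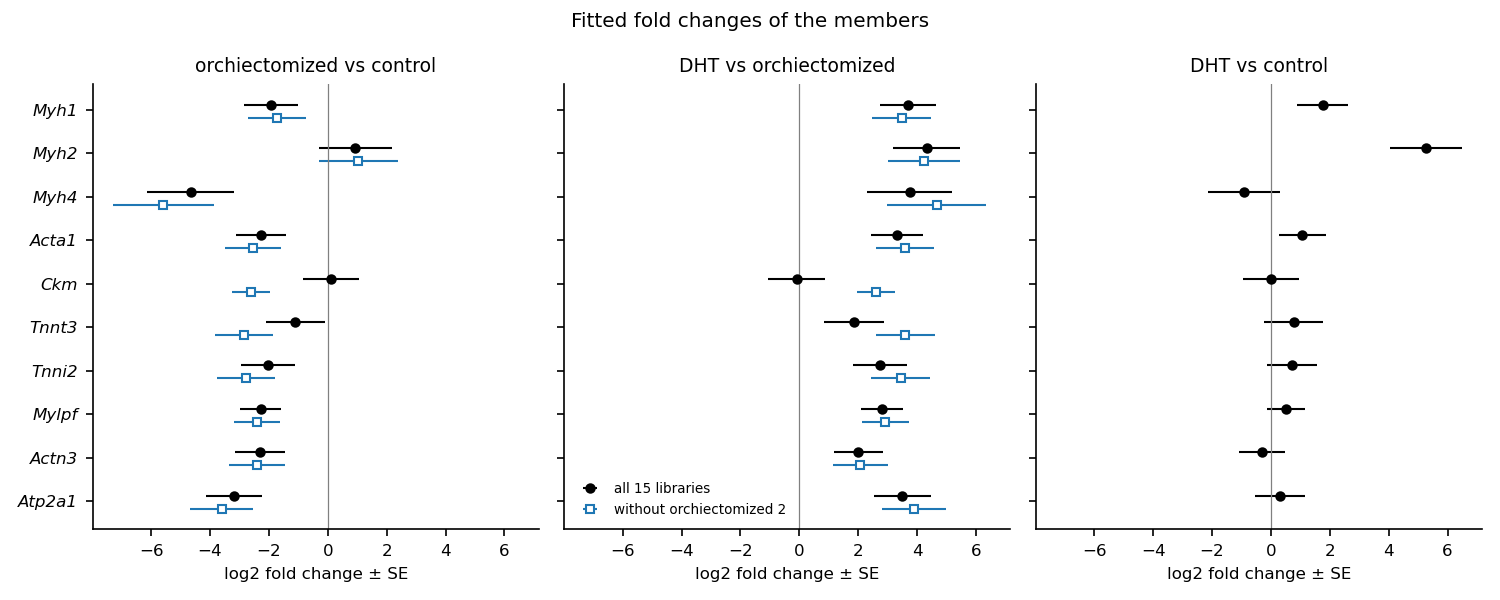
Log2 fold changes of the 10 genes with standard errors in the 3 comparisons, fitted to all 15 libraries (black) or without orchiectomized 2 (blue, open; not shown for DHT against control). *Ckm* lies at 0.10 and -0.09 in the first and second panel with all libraries and at -2.61 and 2.61 without orchiectomized 2.

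The ratios of the genes to each other show which of them kept step. Counts of *Tnni2* were taken as the common denominator, from 7 counts in orchiectomized 3 to 416 in control 1. *Acta1* was the steadiest, with 1.76 to 4.90 counts for each count of *Tnni2* (median 4.13), although *Tnni2* itself ran from 0.611 to 37.6 CPM. *Tnnt3* had 1.67 to 6.71 (median 2.41), and its highest ratio was in orchiectomized 2. *Mylpf* had 0.475 to 2.44 and *Atp2a1* 0.889 to 5.33. *Ckm* had 0.971 to 19.2, a spread of 19.8-fold. Its ratio was 19.2 in control 5 and 15.6 in orchiectomized 2, the libraries with the highest *Myh6*, and at most 4.67 in the others. *Actn3* had the widest spread, 25.2-fold, from 0.130 in DHT 4 to 3.29 in orchiectomized 3, where it rests on few counts.

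**Figure D3:**
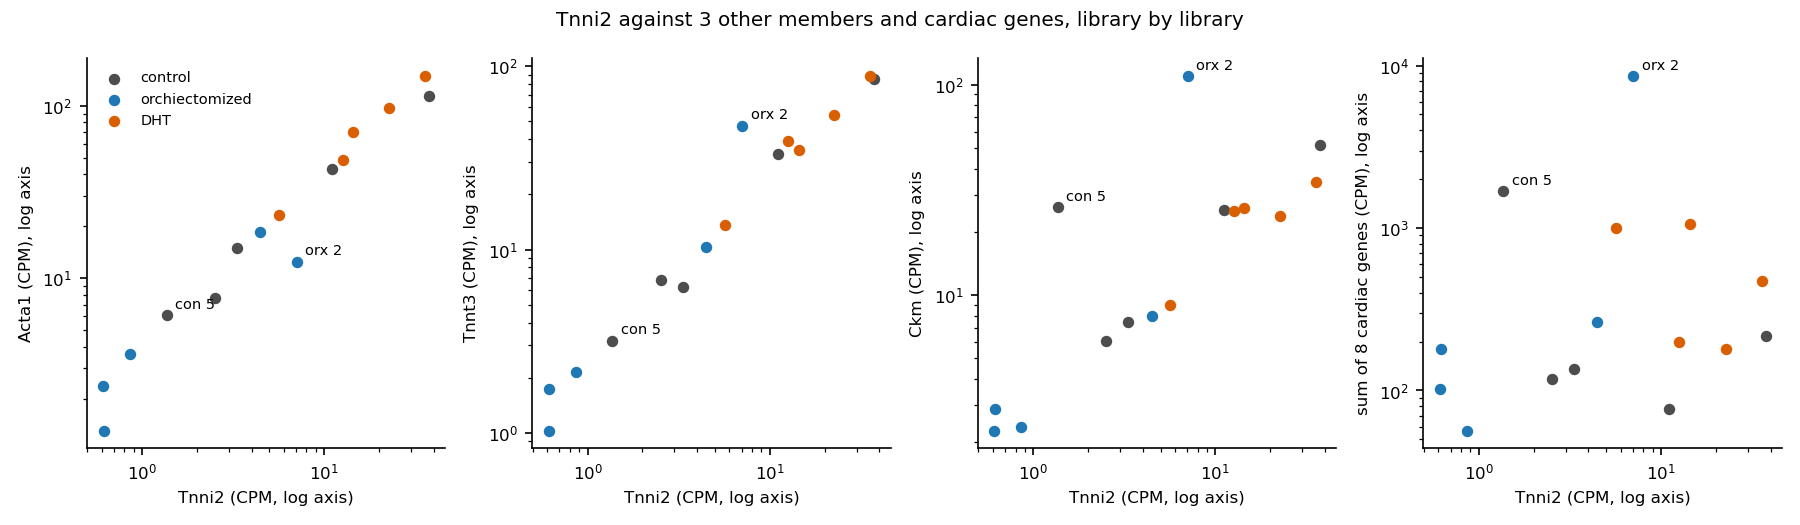
CPM of *Acta1*, *Tnnt3*, *Ckm* and the sum of 8 cardiac genes against CPM of *Tnni2* in the 15 libraries, on log axes, colored by group. *Acta1* follows *Tnni2* most steadily, with its lowest ratio of counts in orchiectomized 2 (1.76, median 4.13). *Tnnt3* is high for its *Tnni2* in orchiectomized 2 (47.4 CPM). *Ckm* is so in orchiectomized 2 and control 5 (110 and 26.2 CPM), which have the highest cardiac sums (8620 and 1680 CPM).

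Between pairs of the 10 genes, the Pearson correlation of log2 CPM over the 15 libraries ranged from -0.25 to 0.98, with a median of 0.68 over 45 pairs. *Tnni2* with *Acta1* and *Tnni2* with *Tnnt3* were both at 0.98. The lowest was *Myh2* with *Myh4*, and *Myh1* with *Myh4* was at 0.08, although *Myh1* with *Myh2* was at 0.79. *Myh4* was closest to *Actn3*, at 0.86. All values come from the same libraries and share their depth and scaling, so these correlations are a description only. Each gene's correlation with the log2 cardiac sum lay between -0.21 (*Actn3*) and 0.63 (*Ckm*), with *Tnnt3* next at 0.31. The part of cardiac RNA in the *Ckm* and *Tnnt3* levels was not tested.

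The make-up of the fast myosin counts differed widely between mice of the same group. *Myh4* made up 90.9%, 31.5%, 94.7%, 95.4% and 45.7% of the *Myh1*, *Myh2* and *Myh4* counts in controls 1 to 5, 11.1%, 81.2%, 17.9%, 43.8% and 25.6% in orchiectomized mice, and 99.4%, 38.9%, 28.0%, 0.815% and 0.22% in DHT mice. The exact binomial 95% intervals, which cover counting error only, were 98.8% to 99.7% in DHT 1 (1297 counts) and 0.00558% to 1.22% in DHT 5 (454 counts), but 1.38% to 34.7% in orchiectomized 1, which had 18 counts of the 3 genes. *Myh2* made up 25.7% to 65.7% in DHT 2 to 5 and 0 of 1297 counts in DHT 1 (upper limit 0.284%). It made up 12.5% to 66.7% in orchiectomized mice and 0% to 11% in controls, so every orchiectomized library had a larger *Myh2* share than every control. At the closest, the intervals overlapped: 6.63% to 20.8% in orchiectomized 2 and 6.4% to 17.2% in control 2. Orchiectomized 1, 3 and 4 had only 18, 28 and 32 counts of the 3 genes. The pattern was noticed after the values were seen and was not tested.

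On average *Myh4* made up 71.6% ± 30.6 (SD, n = 5) in control, 35.9% ± 28.1 (SD, n = 5) in orchiectomized and 33.5% ± 40.5 (SD, n = 5) in DHT mice. The mean share differed by -35.7 percentage points between orchiectomized and control mice, by -2.47 points between DHT and orchiectomized mice and by -38.2 points between DHT and control mice, beside SDs of 28.1 to 40.5 points within the groups. Without orchiectomized 2 the first difference was -47.1 points. These counts belong to genes chosen on these libraries, so the differences are a description with no test.

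**Figure D4:**
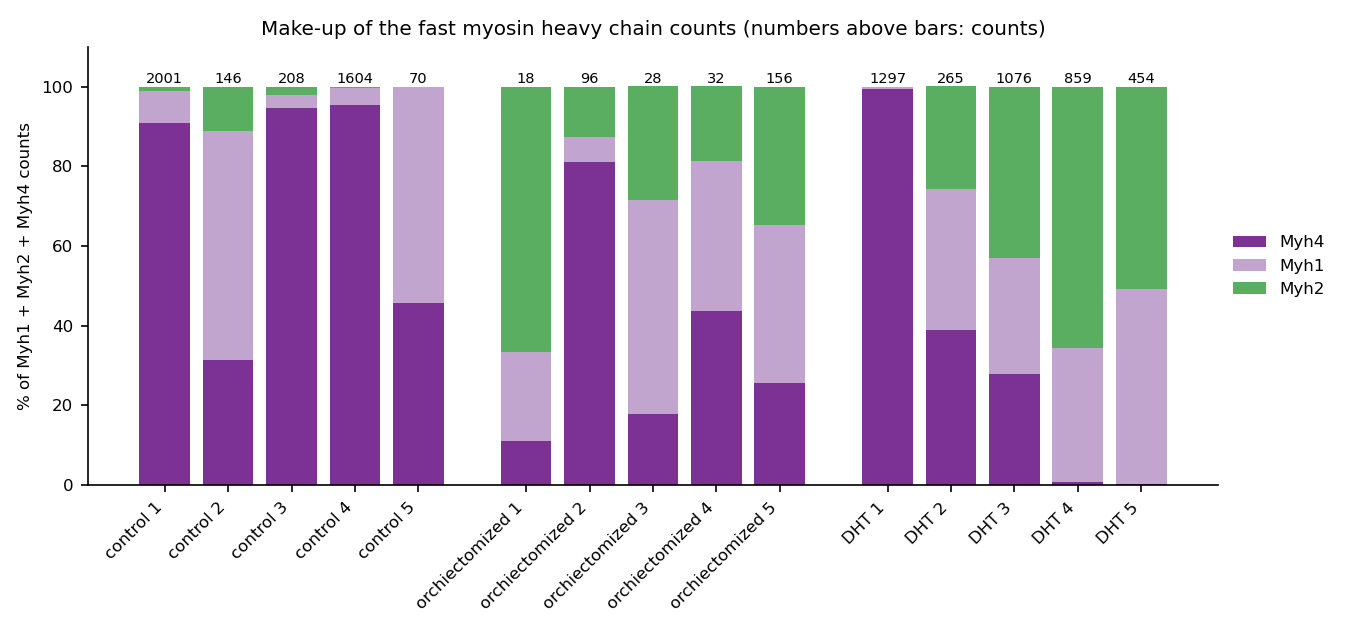
Share of *Myh4*, *Myh1* and *Myh2* in the summed counts of the 3 genes, as stacked bars for each library, with the summed counts above the bars. *Myh4* takes 99.4% in DHT 1 and 0.22% in DHT 5, and it exceeds 90% in controls 1, 3 and 4.

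Levels can be compared between genes only per length. Per kilobase of exon, the mean over the 15 libraries was highest for *Acta1* (26.5 CPM per kilobase) and *Tnnt3* (18), followed by *Mylpf* (10.4), *Ckm* (8.27), *Atp2a1* (8.18), *Tnni2* (7.15), *Myh4* (5.22), *Actn3* (3.08), *Myh2* (1.59) and *Myh1* (1.54). Within each gene the libraries spanned more than these steps, from 0.849 to 96.8 CPM per kilobase for *Acta1* alone, so the means of neighbors in this order do not differ beyond the spread over libraries. Within libraries, *Acta1* was above *Tnnt3* in 14 of 15 (all but orchiectomized 2), *Mylpf* above *Ckm* in 13 and *Actn3* above *Myh2* in 12, and the other neighbors kept their order in 4 to 11 of 15. The exon lengths are those of GENCODE and may not be those of the annotation used for counting.

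Other skeletal muscle genes were then tested, 84 in 9 lists that hold none of the 10 genes, of which 64 passed the filter on low counts. In orchiectomized against control mice, edgeR's quasi-likelihood test called 3 of the 64 at an unadjusted p under 0.01, 1 higher and 2 lower. Of all genes tested, 2.08% were called higher and 1.13% lower. *Neb*, the giant ruler protein of the thin filament, fell 3.84-fold, from 7.47 to 1.94 CPM (log2 -1.94, SE 0.49, edgeR adjusted p = 0.244). *Myoz1*, a calcineurin-binding protein of the fast Z-disc, fell 4.07-fold (-2.02, SE 0.67, edgeR adjusted p = 0.308), and *Tcap*, the titin cap, rose 2.62-fold (1.39, SE 0.40, edgeR adjusted p = 0.280). None passed an adjusted p under 0.05 in edgeR, where 0% of all genes did, although 9 of the 64 had an unadjusted p under 0.05 and DESeq2 gave 1 and limma voom 0 with an adjusted p under 0.05. Over all genes, edgeR gave 1692 with an unadjusted p under 0.05, and at an adjusted p under 0.05 DESeq2 called 131 genes and limma voom 1. The median over the 64 was 0.24. Without orchiectomized 2, edgeR called 11 of the 64, all lower, among them *Neb*, *Myl1*, *Pvalb*, *Ttn* and *Jsrp1*, while 0.944% of all genes were called lower there, and *Tcap* and *Myoz1* were no longer called.

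In DHT against orchiectomized mice, 8 of the 64 rose and none fell at an unadjusted p under 0.01, where 2.46% of all genes were called higher and 7.27% lower. *Neb* rose 6.73-fold, from 1.94 to 13.2 CPM (log2 2.75, SE 0.50, edgeR adjusted p = 0.0117). *Mybpc1*, the slow myosin-binding protein C, rose 22.7-fold from a low level of 0.257 CPM to 6.10 CPM (4.5, SE 1.10, edgeR adjusted p = 0.0329), and *Tnnt1*, the slow troponin T, rose 2.39-fold (1.26, SE 0.33, edgeR adjusted p = 0.0412). These 3 passed an adjusted p under 0.05, as 4.72% of all genes did, while DESeq2 gave 10 of the 64 (1285 of all 14121 genes) and limma voom 2 (526 of all genes). *Tnnc2*, the calcium-binding subunit of fast troponin, rose 8.49-fold (3.09, SE 0.86, edgeR adjusted p = 0.0542). Of the 800 exon bases of *Tnnc2*, 592 overlap the protein-coding gene *Ube2c* on the other strand, so part of its counts is uncertain. The others were *Mybpc2* (fast myosin-binding protein C, 2.51-fold), *Myoz1* (3.99-fold), *Jsrp1* (a protein of the calcium release machinery, 8.06-fold) and *Myot* (myotilin of the Z-disc, 9.32-fold), with edgeR adjusted p-values of 0.0670 to 0.103. The median over the 64 was 0.11. Without orchiectomized 2, edgeR called 19 of the 64 higher and none lower, 7 with an adjusted p under 0.05 (395 of all 14188 genes tested), while 3.14% of all genes were called higher there. *Myoz1* was no longer called without that library.

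Library by library, *Tnnc2* had 11.5 to 64.1 CPM in DHT mice against 0.755 to 7.47 CPM in orchiectomized mice, and *Neb* 4.94 to 22.7 CPM against 1.29 to 3.17 CPM. For these 2 of the 64 genes all DHT libraries were above all orchiectomized libraries, a share near the 2.09% of all genes. The controls had 2.73 to 57.4 CPM of *Tnnc2*, which spread over both ranges. They had 16.1, 4.21, 3.23, 9.82 and 4.01 CPM of *Neb* in controls 1 to 5, again highest in controls 1 and 4, and the lowest of them was just above the highest orchiectomized library. *Mybpc1* stood at 0.512, 1.80, 11.6, 10.5 and 6.09 CPM in DHT mice 1 to 5, highest in the libraries with the most *Myh2*. *Tnnt1* followed another pattern, with 1.96 to 4.01 CPM in controls, 1.51 to 5.65 CPM in orchiectomized mice and 5.42 to 9.29 CPM in DHT mice.

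In DHT against control mice, 2 of the 64 rose and none fell at an unadjusted p under 0.01, with 1.52% of all genes called higher and 2.01% lower. *Tnnt1* rose 2.62-fold (log2 1.39, SE 0.33, edgeR adjusted p = 0.0961) and *Tcap* rose 2.70-fold (1.44, SE 0.40, edgeR adjusted p = 0.187). *Tcap* stood at 28.2 to 55.2 CPM in controls, 46.0 to 245 CPM in orchiectomized mice and 71.2 to 146 CPM in DHT mice, an order unlike that of the 10 genes. None of the 64 passed an adjusted p under 0.05 in edgeR, as 0.262% of all genes did, while 6 had an unadjusted p under 0.05 (1671 of all 14121 genes), and DESeq2 and limma voom each gave 2 with an adjusted p under 0.05 (230 and 156 of all genes). Without orchiectomized 2, edgeR gave 2 of the 64 with an adjusted p under 0.05 (102 of 14188 genes).

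By list, most calls fell among the other fast-fiber genes and the sarcomere framework genes. Of the 9 other fast-fiber genes, 1 was called lower in orchiectomized against control mice, 3 were called higher in DHT against orchiectomized mice, and none was called by edgeR in DHT against control mice (0 at an unadjusted p under 0.05). *Pvalb*, the calcium buffer of the fastest fibers, stood at 47.1 CPM in control 1, 25.6 CPM in DHT 1 and 21.0 CPM in DHT 3 but at 0.985 and 1.86 CPM in DHT 4 and 5, where *Myh4* was also low, and its differences had edgeR adjusted p-values of 0.342 and 0.202 in the first and second comparison. Of 11 tested genes of excitation-contraction coupling, 1 (*Jsrp1*) was called, and of 18 sarcomere framework genes 2 were called in orchiectomized against control mice (*Neb* lower, *Tcap* higher), 3 in DHT against orchiectomized mice (*Neb*, *Mybpc1* and *Myot*, all higher) and 1 in DHT against control mice (*Tcap*, higher). Without orchiectomized 2, the calls in orchiectomized against control mice were 2 fast-fiber genes (*Myl1* and *Pvalb*), 3 coupling genes (*Jsrp1*, *Trdn* and *Srl*) and framework genes such as *Ttn*, *Neb* and *Xirp2*, all lower. Without it, 4 fast-fiber, 4 coupling and 7 framework genes were called in DHT against orchiectomized mice, all higher. Of the 12 genes for muscle isoforms of glycolytic and energy enzymes none was called by edgeR in any comparison at an unadjusted p under 0.01, with 1 at an unadjusted p under 0.05 in each of the first 2 and 0 in the last, and limma voom and DESeq2 called *Pgam2* and *Phka1*, respectively, higher in DHT than in orchiectomized mice, and DESeq2 also called *Phka1* lower in orchiectomized than in control mice. Without orchiectomized 2, edgeR called *Eno3* and *Pgam2*, an enolase and a phosphoglycerate mutase of muscle, lower in orchiectomized against control mice and higher in DHT against orchiectomized mice. Several listed genes were high in all libraries, those lowest in the 10 genes included: *Myom1* had 246 to 657 CPM, *Ldb3* 104 to 238 CPM, *Casq1* 40.3 to 136 CPM and *Pfkm* 87.5 to 167 CPM.

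The summed level of the slow-fiber genes, most of which the heart uses as well, was highest in orchiectomized 2, control 5 and DHT 5, which also had the highest cardiac sums. Single genes of the list differed from this, and *Myl2*, a ventricular and slow light chain, was highest in DHT 4 (12.6 CPM) and orchiectomized 5 (11.6 CPM). *Myh7* stood at 14.9 CPM in orchiectomized 2, 7.84 CPM in DHT 5 and 0.212 to 5.24 CPM elsewhere. *Tnni1*, the troponin I of slow skeletal fibers, did not exceed 1.44 CPM. The sum of the 8 slow-fiber genes was 571 CPM in orchiectomized 2 and 20.7 to 139 CPM in the other libraries, and 1 of 7 tested genes (*Tnnt1*) was called, in both comparisons with DHT mice. The satellite cell and myogenic regulator genes reached at most 4 counts in any library, and none of the 8 passed the filter. The embryonic, neonatal and specialised myosin heavy chains reached at most 16 counts, and none of the 4 was tested. No neuromuscular junction gene of 5 tested was called in any comparison by edgeR with all 15 libraries at an unadjusted p under 0.01, with 0, 0 and 2 at an unadjusted p under 0.05. *Dok7* was called higher in DHT than in orchiectomized mice by limma voom and by edgeR without orchiectomized 2. In DHT against control mice *Rapsn* was called higher by limma voom and by edgeR with only these groups, and *Chrnb1* lower by edgeR without control 1. Among muscle mass genes, *Fbxo32* (atrogin-1) stood at 82.9 to 243 CPM and *Trim63* (MuRF1) at 0.107 to 33.0 CPM, highest in orchiectomized 2, and neither was called by edgeR (0 of 2 at an unadjusted p under 0.05 in each comparison).

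Markers of other tissues were read beside these results. The cardiac sum of 8 genes was 77.3 to 1680 CPM in control, 56.6 to 8620 CPM in orchiectomized and 180 to 1060 CPM in DHT mice, and the libraries with the most *Tnni2*, control 1 and DHT 3, had 215 and 472 CPM. The brown fat sum was 1290 to 4860 CPM in control, 1270 to 2370 CPM in orchiectomized and 1690 to 4640 CPM in DHT mice, and the adipocyte sum 897 to 2680, 964 to 1890 and 941 to 2300 CPM. The smooth muscle sum was 15300 to 22000, 11400 to 22200 and 21300 to 26400 CPM, and the fibroblast sum 1920 to 2750, 2000 to 3030 and 1340 to 1920 CPM. Endothelial genes summed to 558 to 796, 566 to 882 and 442 to 614 CPM, Schwann cell genes to 37.2 to 151, 86.7 to 321 and 32.2 to 292 CPM, and tendon genes to 143 to 272, 121 to 233 and 110 to 224 CPM. Mesothelial genes summed to 28.9 to 77 CPM in control, 38.9 to 147 CPM in orchiectomized and 5.63 to 18.2 CPM in DHT mice, and squamous epithelial genes to 49.1 CPM in orchiectomized 2 and at most 3.25 CPM in any control or DHT library. Without orchiectomized 2, the orchiectomized sums were 56.6 to 265 CPM for cardiac, 15400 to 22200 CPM for smooth muscle, 86.7 to 258 CPM for Schwann cell and 38.9 to 73.5 CPM for mesothelial genes. By the edgeR test at an unadjusted p under 0.01, all 4 mesothelial genes and 2 of 5 endothelial genes were called lower in each comparison of DHT mice. So were 2 of 5 fibroblast genes, *Dpt* and *Lum* against orchiectomized mice and *Lum* and *Pi16* against controls. Of all genes tested, 7.27% were called lower in DHT against orchiectomized mice, 2.01% in DHT against control mice and 1.13% in orchiectomized against control mice. Of the 7 brown fat genes 1 was called lower in each of the 3 comparisons, *Elovl3* in the first and *Dio2* in both comparisons of DHT mice. As a list, brown fat genes had 0 higher and 7 lower in orchiectomized against control mice (median log2 -0.66). They had 6 higher and 1 lower in DHT against orchiectomized mice (0.60), and 2 higher and 5 lower in DHT against control mice (-0.13). Of the 6 adipocyte genes 1 was called lower in orchiectomized against control mice. No smooth muscle gene of 8 was called by edgeR, with 0, 6 and 4 at an unadjusted p under 0.05 in the 3 comparisons. The part of these tissues in the muscle gene differences was not tested. Muscle carried along on the aortas was not tested as a source either, since no file separates the aortic wall from what lies on it.

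**Figure D5:**
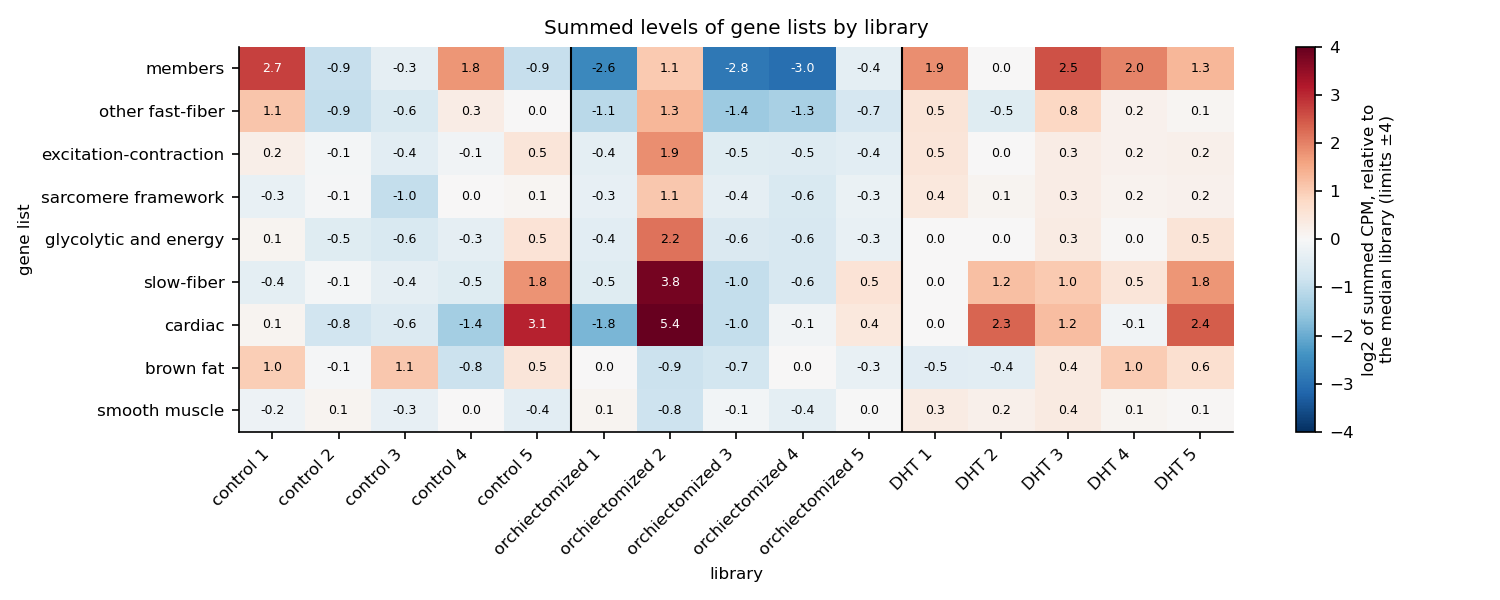
Log2 of the summed CPM of 9 gene lists in each library, relative to the median library of that list (color limits at ±4), with groups parted by black lines. The 10 genes (members) are lowest in orchiectomized 1, 3 and 4, at -2.58, -2.85 and -3.01, while orchiectomized 2 is highest for the cardiac and slow-fiber lists and is at 1.06 for the 10 genes.

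The genes whose log2 CPM over the 15 libraries was most like the mean of the 10 were mostly muscle genes of the lists. They were *Tnnc2* (Pearson r 0.986), *Jsrp1* (0.961), *Neb* (0.919), *Myot* (0.904), *Mybpc2* (0.899), *Myoz1* (0.893), *Hps4* (0.872), *Ryr1* (0.871), *Mybpc1* (0.854) and *Cacna1s* (0.817). *Ryr1* and *Cacna1s* encode the calcium release channel of skeletal muscle and its voltage sensor. *Hps4*, a subunit of a complex for lysosome-related organelles, was the only gene outside the lists and varied little, from 12.5 to 19.6 CPM. *Tnnc2* ran from 0.755 to 64.1 CPM, a range like that of *Tnni2*. The genes were picked for this likeness over the same libraries, so the values are a description.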

How the data were processed

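Whole-aorta poly(A) RNA of 15 mice was sequenced, 5 per group. Per the deposited files, the values are counts of reads for each gene symbol, unscaled. The submitters' processing notes name STAR, Cufflinks, DESeq2 and mm10 without versions. The gene annotation and the strand setting are not given in the sources used here. Groups and replicate numbers were taken from the labels. Reads of no gene (6.26% to 14.4%) or of several genes (1.34% to 1.97%) were left out of library sizes. Low counts were filtered by filterByExpr (10 per library, 15 in total), and the rest were scaled by TMM and tested with edgeR 4.0.16 (R 4.3.3) by quasi-likelihood, with the 3 groups, all 15 libraries and no covariate. A call was an unadjusted p under 0.01, the threshold of the study, and adjusted p-values (Benjamini-Hochberg) ran over all 14121 genes. The method was tested on simulated counts. Log2 CPM used a prior count of 3. Nothing beyond the labels says how mice relate, so p-values measure the spread between these libraries.

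The 10 genes and all lists were chosen with earlier results of these data known. A permutation test planned for the *Myh4* share is not given, because the same counts chose the genes. Named genes were the 10, in each list up to 3 genes with the highest mean CPM and up to 4 called with the smallest p, and the 10 genes most like the mean of the 10. A few others, such as *Pvalb*, *Tnni1*, *Myh7* and *Krt5*, were named after their values were seen. Alternatives were DESeq2 1.42.0, limma 3.58.1 voom with quality weights, RLE size factors, other filters, the replicate number as a block, only the groups compared, muscle genes left out of the library sizes, and leaving out each library. For the *Myh4* share they were *Myh7* added, a logit scale, libraries under 50 counts left out, the block and each library left out. Positions and exon lengths came from GENCODE M21 and promoters from RefSeq (GRCm38.p6). Figures were drawn with Python 3.11.15.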

Additional observations from a re-analysis of the deposited data

Results flagged for a closer look

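As a description of single libraries and not a test between groups, in 33 groups of 5 libraries (the 10 genes and the *Myh4* share in the 3 groups), 5 held a library whose gap to the nearest other library was over 0.71 of the range of the group, Dixon's critical value, which chance gives in about 5% of groups. Orchiectomized 5 was high for *Myh1* (5.04 CPM, nearest library 1.31 CPM) and for *Myh2* (4.39 CPM, nearest 1.29 CPM). Orchiectomized 2 was high for *Ckm* (110 CPM, nearest 7.96 CPM) and for *Tnnt3* (47.4 CPM, nearest 10.3 CPM). Control 1 was high for *Tnni2* (37.6 CPM, nearest 11.1 CPM).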

How the results depend on the processing

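Of the log2 differences of the 10 genes, 672 were recomputed under other settings and 27 changed sign or came to 0 at 2 decimals, 1 of them with a size over 1 (*Tnnt3*, orchiectomized against control, from -1.10 to 0 without control 1). In DHT against orchiectomized mice limma voom put *Myh2* at 1.67 and *Ckm* at 1.71, where edgeR gave 4.32 and -0.09. For other muscle genes, the number of calls in orchiectomized against control mice, 3 in edgeR, was 9 with DESeq2, 1 with limma voom (*Scn4a*, none of the 3), 1 with a fit of only the groups compared (*Neb*), and 0 at an adjusted p under 0.05. In DHT against orchiectomized mice it was 8 of 64, against 5 of the 34 tested with at least 10 counts in every library and 3 at an adjusted p under 0.05. DESeq2 gave 11 of 64, and a filter of at least 1 count gave 10 of 83. limma voom also called 8, of which 4 (*Tnnc2*, *Jsrp1*, *Neb* and *Tnnt1*) were among the 8 of edgeR, and *Mybpc1*, *Mybpc2*, *Myoz1* and *Myot* were not. In DHT against control mice it was 2, against 4 with only the groups compared and 0 at an adjusted p under 0.05. Leaving out 1 library gave 2 to 11, 4 to 19 and 2 to 4 calls. The first count was 6, 5 and 7 without controls 2, 3 and 5 and 11 without orchiectomized 2, the second was 19 without orchiectomized 2, 4 without orchiectomized 1 or 3 or DHT 3 and 5 without orchiectomized 4, and the third was 4 without control 1. With the replicate number as a block the counts were 1, 3 and 3. Deviations of same-numbered libraries correlated above 0.1 in 1, 2 and 2 of 5 pairs, with r from -0.47 to 0.46 over the 3 comparisons. Of 5 libraries, 0, 1 and 0 correlated best with their own number. With so few pairs, these values cannot tell whether the numbers paired the mice.

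The difference in *Myh4* share with *Myh7* added to the counts was -45.7 points in orchiectomized against control mice and turned to 9.88 points in DHT against orchiectomized mice. Leaving out libraries under 50 counts dropped orchiectomized 1, 3 and 4 (18, 28 and 32 counts). The mean of that group then rested on orchiectomized 2 and 5 alone (81.2% and 25.6%). With that setting the difference was -18.2 and -20 points in these comparisons. Without 1 library it ranged from -47.1 to -29.5, from -19.0 to 8.86 and from -54.7 to -29.9 points. It was widest without orchiectomized 2 (-47.1) or control 2 (-45.8) in the first comparison and without DHT 1 (-54.7) in the last, and the second difference turned positive without DHT 4 (5.69), DHT 5 (5.84) or orchiectomized 2 (8.86). The cause was not tested. Low counts limit *Myh2*, with under 10 counts in 6 libraries, and the regulator genes. *Myh1*, *Myh4*, *Tnni2*, *Actn3* and *Atp2a1* also fell under 10 counts in some libraries, with lowest counts of 4, 1, 7, 8 and 8. Their fold changes and the ratios to *Tnni2* share this limit.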
